A study of Homo sapiens with 18 samples.

Results

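The genes described here are the nuclear genes for the subunits of the oxidative phosphorylation complexes, together with the few genes that share their name pattern, in MCF10A cells grown in 2D or 3D. Members were the protein-coding genes of the deposited count table whose symbols begin with NDUFA, NDUFB, NDUFC, NDUFS, NDUFV, UQCR, COX4 to COX8 or ATP5, or are SDHA, SDHB, SDHC, SDHD or CYC1, with a mean count of at least 50 over the 18 libraries. The rule found 91 of 60662 genes: 37 subunits of complex I, 4 of complex II, 9 of complex III, 12 of complex IV, 18 of complex V, and 11 others. NDUFA4 was counted in complex IV, where its protein is now placed. The 11 others were 8 complex I assembly factors caught by the NDUFAF prefix, the readthrough genes ATP5MF-PTCD1 and NDUFC2-KCTD14, and UQCRHL, an intronless copy of UQCRH. Of 99 protein-coding genes with such names, 8 fell under the mean count. UQCRHL lay just inside it with a mean count of 66.2, and NDUFA4L2 and COX6B2 lay just outside with 23.7 and 20.4. Members were chosen by name and by their mean count over all groups, under a rule set with earlier results of these data known.

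MCF10A is an established, immortalised and non-malignant human breast epithelial line. The cells, with no genetic change named in the labels, were plated sparsely on soft polyacrylamide gels coated with Matrigel, a laminin-rich basement membrane extract. All groups had medium with horse serum, EGF, insulin, cholera toxin and hydrocortisone. The 2D groups then received fresh medium, and the 3D groups received medium with 2% Matrigel, which sets around the cells. Poly-A RNA was sequenced at timepoints 1, 2 and 3 of each culture, which gave 6 groups of 3 libraries. The protocol lists harvests at 3, 12 and 21 h, and these hours match the timepoint numbers only by order. The labels do not say whether libraries of a group came from separate cultures, so p-values measure the spread between these libraries, which may be technical. The question put to the members was whether the complexes differ in transcript level between 2D and 3D, and when.

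Oxidative phosphorylation couples electron transfer to ATP synthesis at the inner mitochondrial membrane. Complexes I and II take electrons from NADH and succinate and pass them by way of ubiquinone, complex III and cytochrome c to complex IV, which reduces oxygen. Complexes I, III and IV pump protons, and complex V, the ATP synthase, uses the proton gradient to make ATP. The catalytic subunits of complex IV and several membrane subunits of complexes I, III and V are encoded in mitochondrial DNA, so the enzymes are assembled from the products of both genomes, whereas complex II is nuclear throughout.

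The promoter regions of members the results turn on are shown first, because these genes moved in different directions although they serve the same chain. Of the 91 members, 72 had an entry among the RefSeq promoters of GRCh38.p14, each covering 300 bases. ATP5MD, UQCRB, COX6C, NDUFA4 and NDUFB9 had none. The comparison used for this choice was timepoint 2 against timepoint 1 within 3D, not a comparison between the cultures. From each complex the member with the smallest p in that comparison was taken among those with an entry. Only members with an edgeR adjusted p under 0.05, without the replicate number as a block, were eligible. SDHA fell in that comparison, and UQCRQ, ATP5F1E and NDUFB2 rose. The 250 bases before the RefSeq start are printed 5′ to 3′ on the gene's strand, at chr5:218070-218319 (+) for SDHA, chr5:132866392-132866641 (+) for UQCRQ, chr20:59032336-59032585 (-) for ATP5F1E and chr7:140696458-140696707 (+) for NDUFB2. Capitals mark exact matches on either strand to an NRF1 motif (GCGCA, any base, then GCGC), an ETS motif (CCGGAAGT), a YY1 motif (AAGATGGC) or an SP1 motif (GGGGCGGGG). NRF1 and the ETS factor GABP are textbook regulators of respiratory chain genes. No listed motif contains another by its letters.
SDHA: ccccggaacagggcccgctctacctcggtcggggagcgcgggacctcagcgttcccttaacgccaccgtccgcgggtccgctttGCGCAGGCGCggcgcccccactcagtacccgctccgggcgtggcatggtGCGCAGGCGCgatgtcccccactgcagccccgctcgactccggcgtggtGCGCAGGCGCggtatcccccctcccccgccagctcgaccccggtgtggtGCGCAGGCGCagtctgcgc
UQCRQ: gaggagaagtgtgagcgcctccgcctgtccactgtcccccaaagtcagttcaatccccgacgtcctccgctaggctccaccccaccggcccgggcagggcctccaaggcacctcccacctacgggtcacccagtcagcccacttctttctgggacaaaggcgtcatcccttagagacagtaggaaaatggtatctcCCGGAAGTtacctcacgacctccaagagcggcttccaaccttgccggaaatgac
ATP5F1E: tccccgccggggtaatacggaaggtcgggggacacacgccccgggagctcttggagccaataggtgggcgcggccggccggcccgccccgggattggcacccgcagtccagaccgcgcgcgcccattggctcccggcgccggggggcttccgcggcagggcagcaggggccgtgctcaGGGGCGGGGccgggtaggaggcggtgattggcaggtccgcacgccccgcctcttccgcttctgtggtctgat
NDUFB2: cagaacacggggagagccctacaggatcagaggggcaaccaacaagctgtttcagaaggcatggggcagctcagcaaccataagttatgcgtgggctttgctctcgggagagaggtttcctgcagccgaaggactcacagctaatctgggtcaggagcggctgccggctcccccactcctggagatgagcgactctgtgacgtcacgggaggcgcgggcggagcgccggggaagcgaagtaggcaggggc

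The SDHA region held 4 NRF1 matches, the UQCRQ region 1 ETS match, the ATP5F1E region 1 SP1 match and the NDUFB2 region none. The region of COX7A2, taken for complex IV by the same rule, also held none and is not printed. Over the 300-base windows, the NRF1 letters were found for 16 of 72 members, 22.2%, and for 6.28% of all 27305 promoter entries. The YY1 letters were found for 11 members, 15.3%, against 3.03% of all entries, and the ETS letters for 9 members, 12.5%, against 4.44%. The SP1 letters were found for 9 members, 12.5%, against 16.0%. The NRF1 letters were found in 4 of 7 complex III windows, 2 of 3 of complex II, 3 of 12 of complex V, 6 of 32 of complex I and 0 of 10 of complex IV. A match describes the sequence only and was not measured as binding.

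Library totals in the file headers ran from 9.31 M to 17.7 M, given for 17 of the 18 libraries. Summed gene counts were 4.73 to 5.73 times these totals, and levels are therefore compared between libraries for one gene, never between genes. At timepoint 2 this ratio lay between 4.96 and 5.26 for 2D libraries and between 5.54 and 5.73 for 3D libraries, and its part in the differences below was not tested. Replicate 1 of the 2D group at timepoint 3, whose labels name no file other than the raw counts, entered no main comparison, which leaves n = 2 there. All 91 members passed the filter on low counts among 18592 genes tested. Of 10 breast epithelial markers, all were detected, with KRT5 at 2766 to 8305 and TP63 at 14.1 to 71.6 CPM (counts scaled to a common library size) over the 17 libraries. Of the markers listed for other cell types, 3 of 6 fibroblast, 1 of 4 leukocyte and 2 of 3 endothelial genes passed that filter. CD3E and COL3A1 were at 0 in all 18 libraries, and PTPRC reached 2 counts at most. From timepoint 1 to 2 the tested leukocyte marker rose without the block. Its log2 fold change was 1.46 in 2D and 1.32 in 3D (edgeR adjusted p = 0.000455 and 0.00051). No fibroblast or endothelial marker passed there. DCN, a fibroblast marker, was present at 115 to 264 CPM with ranges that overlapped between 2D and 3D at each timepoint.

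At timepoint 1 no difference between 2D and 3D was called for any member. None passed the test of 3D against 2D, with or without the replicate number as a block, and 0.0% of all genes did. At an unadjusted p under 0.05, 0 members passed in the edgeR fit without the block and 1 with it. The median log2 fold change of the 91 members was 0.01, and the medians of complexes I to V lay between 0.01 and 0.02. The libraries of this timepoint differed by replicate number instead. Relative to the mean of 2D timepoint 1, the mean log2 CPM of the 80 subunits was 0.00, -0.48 and 0.47 in the 2D replicates 1, 2 and 3, and -0.08, -0.46 and 0.55 in the 3D replicates of the same numbers. Replicate 2 was lowest and replicate 3 highest in both cultures, and the labels give all libraries of one number a shared date. The median coefficient of variation of the members was 32.2% in 2D and 36.1% in 3D at this timepoint, and between 7.69% and 12.7% in the 4 later groups.

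At timepoint 2 the transcripts of all 5 complexes stood higher in 3D. The mean log2 CPM of the 80 subunits, relative to 2D timepoint 1, was 0.62, 0.56 and 0.71 in the 3D libraries and 0.02, 0.08 and 0.04 in the 2D libraries. The lowest 3D library therefore lay above the highest 2D library. The log2 fold change was above 0 for 86 of the 91 members, and its median was 0.62, against -0.03 over all genes tested. With the replicate number as a block, 48 members were higher in 3D and 0 lower (edgeR, adjusted p under 0.05), which is 52.7% of members against 9.0% of all genes higher and 15.9% called in either direction. Without the block, no member passed, against 1.49% of all genes, and the smallest edgeR adjusted p was 0.0510, for NDUFB6. At an unadjusted p under 0.05 there were 58 members, and the share of all genes at that threshold is not given here. The count with the block fell to 6 without 2D replicate 3, when 5.41% of all genes were called, to 12 without 2D replicate 1 (5.7%) or without 3D replicate 2 (9.11%), and to 20 without 3D replicate 1 (7.02%). It was 36 without 3D replicate 3 (13.1% of all genes) and 51 without 2D replicate 2 (14.5%), and 0 members were lower in each case. Without the block the count was 0 whichever library was left out. A fit of these groups alone, without the block, called 41 members, against 4.83% of all genes, and DESeq2 called 18, against 8.91%.

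**Figure D1:**
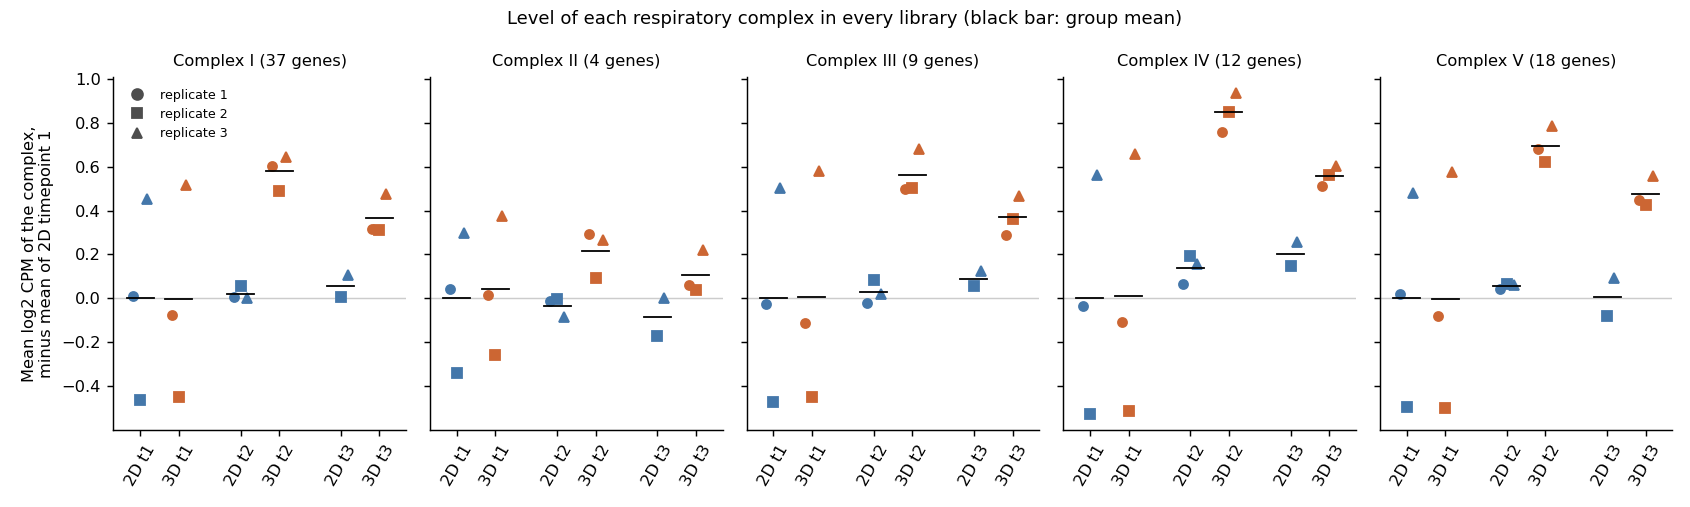
Each panel gives 1 complex, and each point is the mean log2 CPM of its subunits in 1 library minus the mean of the 2D timepoint 1 libraries, with marker shapes for replicate numbers, blue for 2D, orange for 3D and black bars for group means. The 3D libraries of timepoint 2 lie above the 2D libraries in every panel, while at timepoint 1 the libraries spread by replicate number alike in both cultures.

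Complex I takes electrons from NADH, and its 37 nuclear members divide into 7 subunits of the catalytic core and 30 accessory subunits around them. Their median log2 fold change at timepoint 2 was 0.63. The 30 accessory subunits were all positive, with a median of 0.69, and 17 of them passed with the block. The 7 core subunits had a median of 0.39, ran from -0.19 to 0.74, and 1 passed, NDUFS8, an iron-sulphur subunit. NDUFB2, an accessory subunit of the membrane arm, had 277, 298 and 287 CPM in the 2D replicates 1 to 3 and 464, 511 and 518 CPM in the 3D replicates. All 3D values lay above all 2D values, and the log2 fold change was 0.79 with the block (SE 0.19, edgeR adjusted p = 0.0142; 0.0761 without). NDUFB3, another membrane arm subunit, had 41.0, 36.1 and 38.4 CPM in 2D and 68.5, 55.0 and 70.8 CPM in 3D, a log2 fold change of 0.73 with the block (adjusted p = 0.00805). NDUFS4, an accessory subunit known from inherited complex I deficiency, had 62.5, 52.6 and 60.4 CPM in 2D and 103, 85.0 and 104 CPM in 3D, a log2 fold change of 0.73 with the block (adjusted p = 0.00546). Neither gene's ranges overlapped. NDUFA11, also accessory, had the highest difference of complex I, a log2 fold change of 1.00. NDUFS1, the largest iron-sulphur subunit of the NADH-oxidising arm, had 177, 185 and 191 CPM in 2D and 189, 129 and 168 CPM in 3D. These ranges overlapped, and its log2 fold change of -0.19 (SE 0.16) was the lowest of the complex and did not pass (edgeR adjusted p = 0.545). NDUFV1, which holds the FMN site, had a log2 fold change of -0.01 and did not pass.

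Complex II, succinate dehydrogenase, had 4 members, and 1 of them passed with the block. SDHB, the iron-sulphur subunit, had 139, 140 and 148 CPM in 2D and 202, 181 and 248 CPM in 3D, with no overlap and a log2 fold change of 0.54 with the block (SE 0.14, edgeR adjusted p = 0.0196; 0.199 without). The membrane anchors SDHC and SDHD had log2 fold changes of 0.36 and 0.32 and did not pass in either fit. SDHA, the flavoprotein that oxidises succinate and also works in the citric acid cycle, had 261, 273 and 229 CPM in 2D and 242, 219 and 199 CPM in 3D. It was lower in 3D in each of the 3 replicate pairs, but the ranges overlapped and its log2 fold change of -0.21 (SE 0.14) did not pass (edgeR adjusted p = 0.405; 0.266 with the block). SDHA has 3 annotated pseudogenes of similar sequence in the table, whose counts summed to 0.505% of its own.

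In complex III the accessory subunits and the core differed in value. The 5 small accessory subunits, UQCRB, UQCRQ, UQCRH, UQCR10 and UQCR11, had log2 fold changes of 0.70 to 0.95 with a median of 0.83, and all 5 passed with the block. UQCRQ had 308, 382 and 339 CPM in 2D and 539, 700 and 666 CPM in 3D, with no overlap and a log2 fold change of 0.88 with the block (SE 0.27, edgeR adjusted p = 0.0383; 0.112 without). UQCRB, which supports the quinone site, had 332, 266 and 339 CPM in 2D and 503, 447 and 570 CPM in 3D, a log2 fold change of 0.70 (adjusted p = 0.00947 with the block). The 2 large core proteins UQCRC1 and UQCRC2 had log2 fold changes of 0.12 and -0.04, and the catalytic subunits CYC1, cytochrome c1, and UQCRFS1, the Rieske protein, had 0.14 and 0.50. None of these 4 passed in either fit. Reads of UQCRH and its near-identical copy UQCRHL may be divided between both, so their values are uncertain.

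In complex IV, cytochrome c oxidase, all 12 log2 fold changes were positive and ran from 0.51 for COX6A1 to 1.07 for COX7B, and all 12 were higher in 3D in each of the 3 replicate pairs. With the block 6 passed: COX7B, NDUFA4, COX6C, COX7A2, COX8A and COX7C. COX7A2, a small subunit of the enzyme's membrane part, had 261, 303 and 276 CPM in 2D and 470, 552 and 535 CPM in 3D. No values overlapped, and its log2 fold change was 0.89 with the block (SE 0.24, edgeR adjusted p = 0.0256; 0.0983 without). NDUFA4 had 108, 117 and 118 CPM in 2D and 215, 258 and 245 CPM in 3D, a log2 fold change of 1.07 with the block (adjusted p = 0.0148). COX4I1, COX5A and COX5B, subunits close to the catalytic core, had log2 fold changes of 0.61, 0.60 and 0.63 and did not pass. COX4I1 had 1247, 1428 and 1368 CPM in 2D and 1941, 2093 and 2130 CPM in 3D, so its ranges did not overlap although its adjusted p was 0.0843 with the block (0.227 without, edgeR).

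Complex V joins a catalytic F1 head to a membrane part that holds the proton-driven c ring. The 5 other small membrane subunits had a median log2 fold change of 0.99, and all 5 passed with the block. ATP5MD, a small subunit tied to the dimer form of the synthase, had 138, 82.8 and 103 CPM in 2D and 259, 194 and 217 CPM in 3D. No values overlapped, and it had the smallest p of all members with the block, at a log2 fold change of 1.08 (SE 0.15, edgeR adjusted p = 0.000824; 0.0709 without). ATP5ME, another small membrane subunit, had 131, 175 and 145 CPM in 2D and 244, 386 and 323 CPM in 3D, without overlap, and a log2 fold change of 1.07 with the block (adjusted p = 0.0255). The c ring genes ATP5MC1, ATP5MC2 and ATP5MC3 encode the same mature protein, and their log2 fold changes were 0.72, 0.63 and 0.60, with ATP5MC1 passing with the block. In the stalk that holds the head, 3 of 4 members passed, ATP5PF, ATP5PD and ATP5PO, with log2 fold changes of 0.72, 0.60 and 0.75. In the F1 head the members diverged. ATP5F1E, the epsilon subunit, had 77.3, 82.5 and 94.5 CPM in 2D and 157, 207 and 206 CPM in 3D, with a log2 fold change of 1.17 with the block (SE 0.26, edgeR adjusted p = 0.0095; 0.0603 without). ATP5F1B, the catalytic beta subunit, had 1368, 1407 and 1311 CPM in 2D and 1453, 1118 and 1318 CPM in 3D. These overlapped, with a log2 fold change of -0.07 (SE 0.19, edgeR adjusted p = 0.87), and ATP5F1A, the alpha subunit, had 0.06. ATP5IF1, which inhibits the synthase when it would run in reverse, passed with the block at a log2 fold change of 0.50 (adjusted p = 0.0494; 0.208 without).

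Among the 11 members outside the complexes, all 11 log2 fold changes at timepoint 2 were positive, with a median of 0.61, and 7 passed with the block. These were 6 of the 8 complex I assembly factors, NDUFAF2, NDUFAF3, NDUFAF4, NDUFAF5, NDUFAF6 and NDUFAF8, and the readthrough NDUFC2-KCTD14. NDUFAF4 had 10.3, 6.46 and 7.54 CPM in 2D and 16.0, 9.11 and 17.1 CPM in 3D. The ranges overlapped, since the lowest 3D value, of replicate 2, lay below the highest 2D value, of replicate 1, while 3D was higher in each pair of the same number. Its log2 fold change was 0.78 with the block (SE 0.15, edgeR adjusted p = 0.00425; 0.153 without). NDUFAF1 and NDUFAF7 had log2 fold changes of 0.09 and 0.13 and did not pass.

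**Figure D2:**
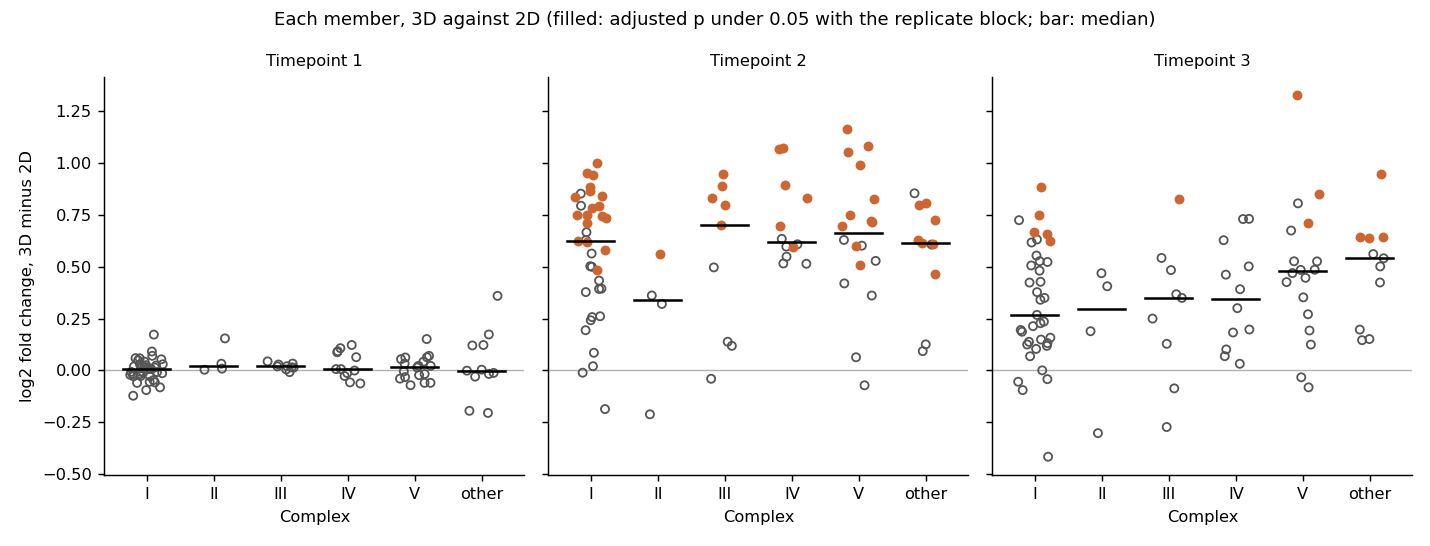
Each point is 1 member, with its log2 fold change of 3D minus 2D from the fit without the block on the vertical axis and its complex on the horizontal axis, and filled points passed in the fit with the block. The points lie about 0 at timepoint 1, mostly above 0.5 at timepoint 2 with 48 filled, and lower at timepoint 3 with 13 filled.

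Across the complexes at timepoint 2, the 5 members with a negative log2 fold change were catalytic or core proteins, namely NDUFS1, NDUFV1, SDHA, UQCRC2 and ATP5F1B. The difference between core and accessory subunits was not tested. Median log2 fold changes were 0.63, 0.34, 0.70, 0.62 and 0.66 for complexes I to V, and differences between complexes were not tested either. The libraries of the groups did not overlap, with 3D higher, for 69 of 91 members, 75.8%, against 14.8% of all genes. In each of the 3 replicate pairs, 77 members were higher in 3D, 84.6%, against 26.9% of all genes. SDHA alone was lower in each pair, against 29.4% of all genes.

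Transcript length, taken as the median over a gene's annotated coding transcripts (all its transcripts where none is coding), moved with these differences. Such a median need not equal the length of the transcript that these cells express, which was not measured. Over the 91 members the Spearman correlation of log2 fold change at timepoint 2 with transcript length was -0.34, and over the 18398 tested genes of known length it was -0.26, where genes are not independent replicates. The 70 members of at most 1000 nt had a median of 0.63 and the 21 longer members a median of 0.46. In complex III the median length was 645 nt for accessory subunits, 1285.5 nt for core proteins and 2357.5 nt for catalytic subunits. In complex I it was 699.75 nt for accessory and 930 nt for core subunits. UQCRC2, a core protein, had 586 nt by this median, which need not be the length of its main transcript. The parts of length and of core position were not tested. With an offset for length, the members' median was 0.49, and those of complexes I to V were 0.49, 0.20, 0.65, 0.47 and 0.51. With this offset and the block, 44 members were called, against 13.7% of all genes. At timepoint 3 the correlation with GC content was -0.72 over the members and -0.47 over all genes. With a joint offset for length and GC content, added after the data were seen, the members' median was 0.48 at timepoint 2 and 0.30 at timepoint 3. At timepoint 2 this offset called 7 members, against 4.11% of all genes, and 49 with the block, against 19.4%. Of those 49, 41 were also called with the block and no offset.

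**Figure D3:**
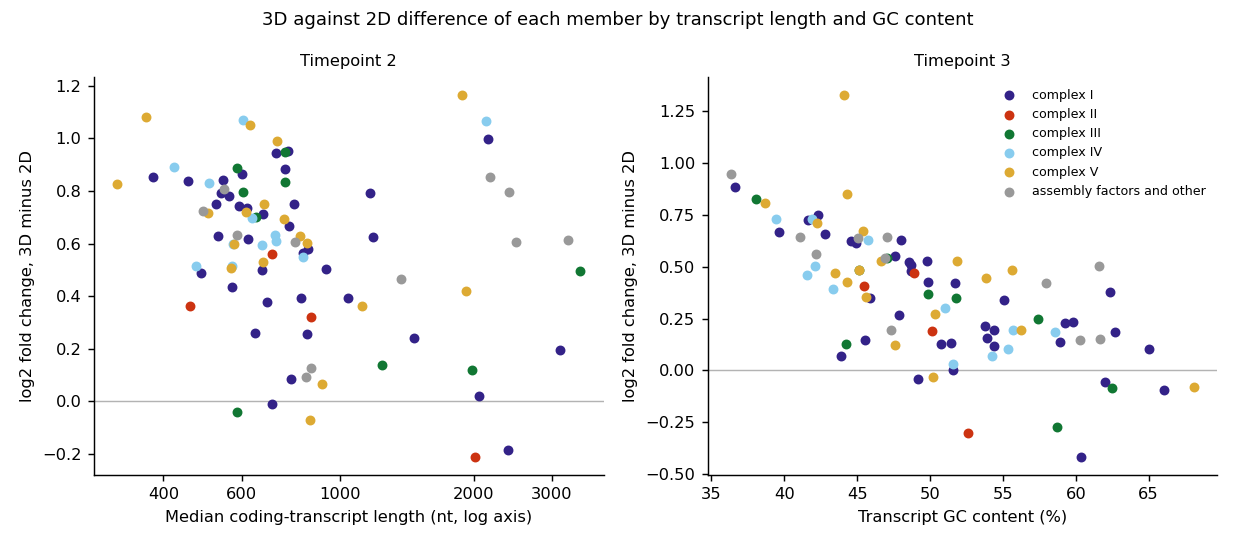
Each point is 1 member, coloured by complex, with the log2 fold change of 3D minus 2D on the vertical axis. The horizontal axis is the median length of annotated coding transcripts on the left, at timepoint 2 (log axis, nt). On the right it is transcript GC content, at timepoint 3. Shorter members tend to lie higher on the left, and members of high GC content lie lower on the right.

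At timepoint 3 the 3D libraries were still above the 2D libraries for most members, by less. The mean log2 CPM of the 80 subunits was 0.36, 0.37 and 0.50 above 2D timepoint 1 in the 3D libraries, and 0.00 and 0.12 in the 2D replicates 2 and 3. The median log2 fold change of the members was 0.39, with 82 positive, against 0.02 over all genes. With the block 13 members were higher and 0 lower, against 4.45% of all genes higher and 9.75% called in either direction. Without it 0 passed (smallest edgeR adjusted p 0.0606, for ATP5MD), against 1.5% of all genes called. The count at an unadjusted p under 0.05 was 20, with no share of all genes given at that threshold. The blocked count was 1 without 2D replicate 3, against 2.36% of all genes, and 2 without 2D replicate 2, against 1.65%. It was 7, 5 and 8 without 3D replicates 1, 2 and 3, against 6.74%, 5.76% and 4.64% of all genes. Median log2 fold changes were 0.27, 0.30, 0.35, 0.35 and 0.48 for complexes I to V. The groups did not overlap, with 3D higher, for 59 members, 64.8%, against 18.9% of all genes, and with 3D lower for 3 members, against 20.2%.

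The 13 members called at timepoint 3 with the block were ATP5MD, ATP5PF and ATP5F1C of complex V, NDUFB3, NDUFS4, NDUFA5, NDUFA12 and NDUFB5 of complex I, UQCRB of complex III, and the assembly factors NDUFAF4, NDUFAF5, NDUFAF6 and NDUFAF7. No member of complex II or IV was among them. With the length and GC offset 0 members passed, against 1.48% of all genes. With that offset and the block 7 members passed, against 10.0% of all genes, and ATP5MD was the 1 gene shared with the 13, so 12 of these calls were lost. ATP5MD had 62.8 and 87.6 CPM in the 2D replicates 2 and 3 and 248, 142 and 176 CPM in the 3D replicates 1 to 3. The 3D values lay above the 2D values, at a log2 fold change of 1.16 with the block (SE 0.18, edgeR adjusted p = 0.00149). ATP5F1C, the gamma subunit that turns inside the head, had 162 and 221 CPM in 2D and 348, 240 and 350 CPM in 3D, a log2 fold change of 0.59 with the block (adjusted p = 0.0179). COX6A1, the lowest of complex IV, had a log2 fold change of 0.03 and COX7B, the highest, 0.73. SDHA had 289 and 259 CPM in 2D and 201, 228 and 238 CPM in 3D, so the 3D values lay below both 2D values, but its log2 fold change of -0.30 (SE 0.15) did not pass (edgeR adjusted p = 0.295; 0.191 with the block). NDUFV1 was lowest of all members at -0.42 and did not pass.

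The time course differed between the cultures by value. In 2D no member passed from timepoint 1 to 2, against 5.87% of all genes, or from timepoint 1 to 3, against 4.86%, in the fit without the block. The members' medians were -0.03 and 0.03, and 1 and 0 members had an unadjusted p under 0.05. With the block the counts were 0, against 13.7% of all genes, and 1, the assembly factor NDUFAF4, against 10.5%. In 3D, 20 members rose and 1 fell from timepoint 1 to 2 without the block (edgeR, adjusted p under 0.05), against 7.31% of all genes higher, 7.76% lower and 15.1% in either direction, and with the block 60 rose and 2 fell, against 28.4% of all genes called in either direction. A fit of the 2 groups alone, without the block, called 0 members, against 6.83% of all genes. The same 3D libraries of timepoint 2 serve in this comparison and in the comparison with 2D, so the calls of both are not independent of each other.

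The 20 risen members included 7 of complex I, 3 of complex III, 4 of complex IV, 5 of complex V and the assembly factor NDUFAF3, and none was a catalytic core subunit of complexes I to III. NDUFB2 had 232, 186 and 353 CPM at 3D timepoint 1 against 464, 511 and 518 at timepoint 2, a log2 fold change of 0.96 (SE 0.22, edgeR adjusted p = 0.0104). ATP5F1E had 70.4, 47.0 and 122 CPM against 157, 207 and 206, a log2 fold change of 1.25 (SE 0.30, adjusted p = 0.0122). COX7A2 had 212, 154 and 379 CPM against 470, 552 and 535, a log2 fold change of 1.06 (SE 0.28, adjusted p = 0.0183). In all 3 genes replicate 3 was the highest library of timepoint 1, and each timepoint 2 library lay above it.

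SDHA was the member that fell, with 314, 311 and 328 CPM at 3D timepoint 1 and 242, 219 and 199 at timepoint 2. The ranges did not overlap, and the log2 fold change was -0.53 (SE 0.14, edgeR adjusted p = 0.0184; 0.0063 with the block). In 2D its level was 312, 280 and 356 CPM at timepoint 1 and 261, 273 and 229 at timepoint 2, also without overlap. With the block NDUFS1 fell too, at a log2 fold change of -0.35 (SE 0.12, adjusted p = 0.0368). Without the block the 3D count from timepoint 1 to 2 rested on single libraries: 65 members were called without 3D timepoint 1 replicate 3, against 19.4% of all genes, but 2 without its replicate 1 (8.8%) and 1 without its replicate 2 (6.76%). Without replicates 1, 2 and 3 of 3D timepoint 2 the counts were 9, 11 and 2, against 10.3%, 12.3% and 8.09% of all genes. With the block, 22 to 71 rose and 1 to 2 fell over the same omissions, against 17.7% to 28.7% of all genes, the lowest without 3D timepoint 1 replicate 2.

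From timepoint 1 to 3 in 3D, NDUFAF4 rose and SDHA fell without the block, against 11.0% of all genes called, and with the block 18 rose and 1 fell, against 23.9%. The share of members called was thus below that of all genes without the block and near it with the block. The count without the block was 37 without 3D timepoint 1 replicate 3, against 14.8% of all genes, and 0 or 1 over the other omissions, and a fit of the 2 groups alone called 0, against 8.04%. With the block 52 rose without that library, against 23.7% of all genes called. The number that rose was 6 without replicate 1 or 2 of timepoint 1 or replicate 1 or 2 of timepoint 3. In these 15.8% to 18.6% of all genes were called, a larger share than that of the members. Without replicate 3 of timepoint 3, 18 rose and 1 fell, against 17% of all genes. NDUFAF4, an assembly factor of complex I, had 9.84, 5.57 and 8.66 CPM at timepoint 1 and 20.6, 11.5 and 17.4 at timepoint 3. The lowest value at timepoint 3 exceeded the highest at timepoint 1.

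The test of the interaction asked whether the difference between 3D and 2D changed from timepoint 1. Without the block no member passed at timepoint 2, against 0.0% of all genes, or at timepoint 3, against 0.183%. With the block ATP5MD passed at both, against 1.31% and 1.56% of all genes. This call rested on single libraries: with the block no member was called in 9 of 12 omissions of 1 library at timepoint 2 and in 6 of 11 at timepoint 3, while 28 were called at timepoint 2 (3.9% of all genes) and 4 at timepoint 3 (1.62%) without 3D timepoint 1 replicate 3, and 5 at timepoint 2 (3.31%) without 2D timepoint 1 replicate 2. With the length and GC offset and the block, ATP5MD passed at timepoint 2 (edgeR adjusted p = 0.0287), with 3 members and 2.75% of all genes called. It no longer passed at timepoint 3 (adjusted p = 0.0591), with 0 members and 1.79% of all genes called. The medians over the members were 0.59 at timepoint 2 and 0.37 at timepoint 3 without the block, with 86 and 81 members positive. At an unadjusted p under 0.05 the counts without the block were 19 and 4, with no share of all genes given at that threshold.

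**Figure D4:**
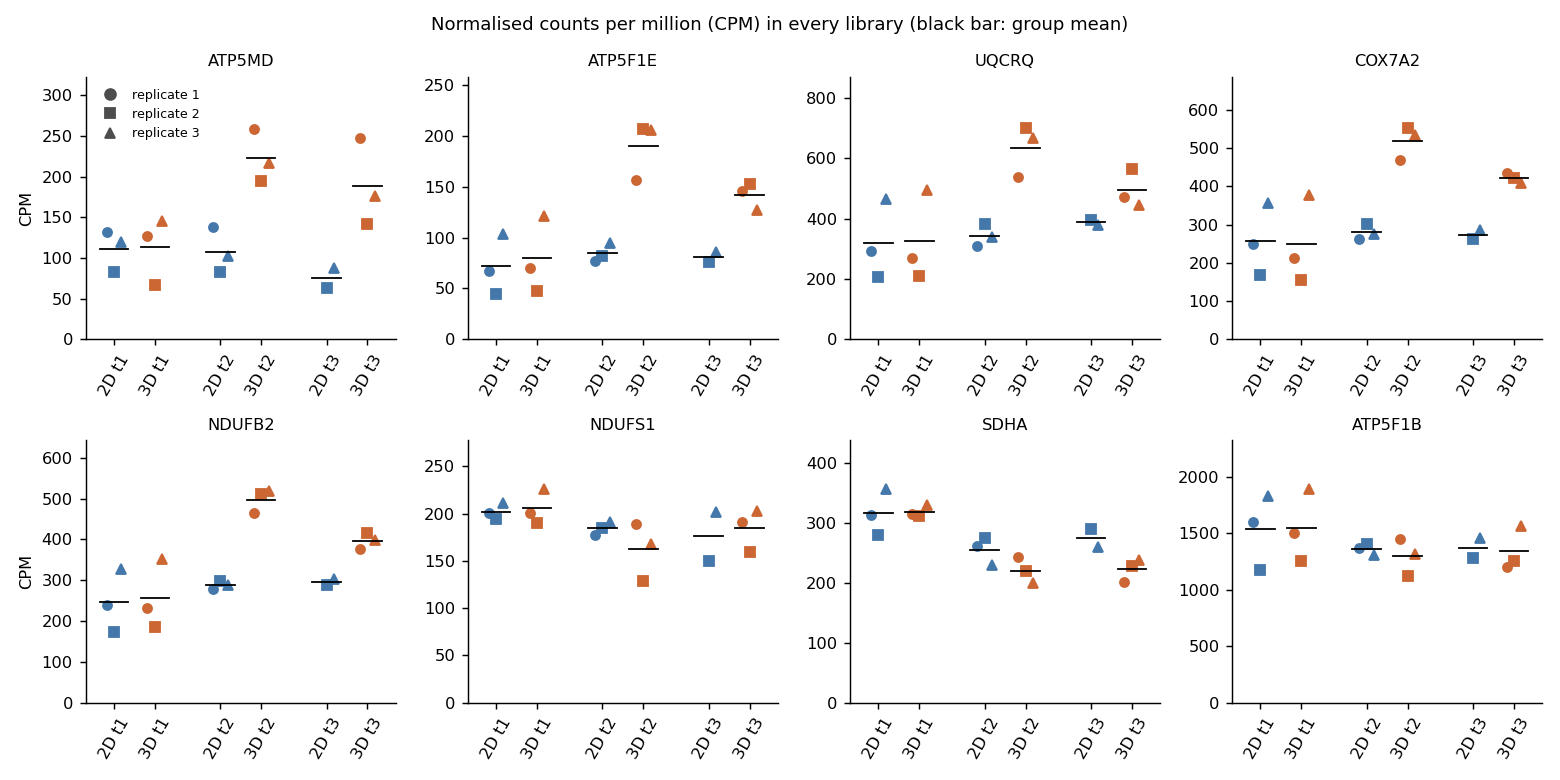
Each panel gives the CPM of 1 member in every library on an axis that starts at 0, by group, with marker shapes for replicate numbers, blue for 2D, orange for 3D and black bars for group means. ATP5MD, ATP5F1E, UQCRQ, COX7A2 and NDUFB2 stand higher in 3D at timepoint 2, whereas NDUFS1, SDHA and ATP5F1B overlap between the cultures there.

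The other genes of the pathway were taken from lists written from general knowledge. Among 26 complex IV assembly factors, 3 were higher in 3D at timepoint 2 without the block and 13 with it, at a median log2 fold change of 0.52. COX17, which delivers copper for the enzyme, stood at 22.4 to 25.7 CPM in 2D and 47.1 to 63.3 in 3D, a log2 fold change of 1.23 (SE 0.24, edgeR adjusted p = 0.0248). CMC2 and COX16, also assembly factors, had log2 fold changes of 1.11 (adjusted p = 0.0248) and 0.92 (adjusted p = 0.0397), and COX16 passed again at timepoint 3 at 1.10 (adjusted p = 0.0282). Among 16 complex I assembly factors, which include the 8 members, 0 passed without the block and 9 with it, at a median of 0.43. With the block 9.0% of all genes were higher. The counts of the other lists with the block were 1 of 4 for complex II assembly, 1 of 6 for complex III, 1 of 3 for complex V, 1 of 13 cytochrome c and electron carriers, and 0 of 14 citric acid cycle enzymes, whose median was 0.01. Of 22 regulators of mitochondrial transcription and biogenesis, 1 was higher and 1 lower with the block, at a median of -0.03 without it. Of 9 tissue-restricted or alternative subunit genes 3 were tested, among them UQCRHL, and none passed in either fit.

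The 13 subunits encoded in mitochondrial DNA went the other way. At timepoint 2 all 13 log2 fold changes of 3D minus 2D were negative, with a median of -1.12, and 2 passed without the block and 13 with it, against 6.86% of all genes lower with the block. MT-ATP8, a subunit of complex V, stood at 94.9 to 161 CPM in 2D and 33.9 to 38.5 in 3D, a log2 fold change of -1.71 (SE 0.34, edgeR adjusted p = 0.0259). MT-ND4L, of complex I, stood at 98.1 to 144 CPM in 2D and 31.4 to 54.4 in 3D, a log2 fold change of -1.45 (SE 0.33, adjusted p = 0.0456). The ranges did not overlap for either. These genes are cut from shared precursor transcripts and are not independent of one another. At timepoint 1 the median of 3D minus 2D was -0.19, with 0 of the 13 positive and 0 passing in either fit. From timepoint 1 to 2 in 3D, 9 of the 13 fell without the block, against 7.76% of all genes lower, at a median of -0.88. In 2D the median was -0.04 from timepoint 1 to 2, and -0.74 with 0 positive from timepoint 1 to 3. In 2D 0 of the 13 passed without the block, against 5.87% and 4.86% of all genes. At timepoint 3 against 2D the median was -0.48, with 0 passing in either fit.

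Some of the listed breast epithelial markers also changed in these libraries, in both directions. Of the 10 markers 0 passed in 3D against 2D at timepoint 2 without the block, against 1.49% of all genes. With the block 2 were lower, against 6.86% of all genes lower and 15.9% in either direction. Without the block 3 log2 fold changes were positive, at a median of -0.18. From timepoint 1 to 2 with the block, 2 rose and 4 fell in 3D, against 28.4% of all genes called in either direction. In 2D 2 rose and 2 fell, against 13.7%, and the medians were -0.52 in 3D and -0.48 in 2D. CDH1, E-cadherin, stood at 112 to 148 CPM in 2D and 28.0 to 86.4 in 3D, and EPCAM at 17.9 to 26.1 and 9.41 to 11.8. Both fell from timepoint 1 to 2 in 3D without the block, with log2 fold changes of -1.56 and -1.67 (edgeR adjusted p = 0.00506 and 0.000507). They were the only listed markers called there, when 7.76% of all genes were lower. Their part in the members' values was not tested. In bulk RNA, a difference in the RNA of each cell and a difference in which cells are present cannot be told apart.

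In the authors' deposited table for timepoint 2, 2 of the 91 members were higher in 3D and 0 lower at an adjusted p under 0.05, against 3.58% of its 13677 genes, with a median log2 fold change of 0.57. The 2 genes were NDUFB6 and ATP5F1E. In the authors' deposited table NDUFB6 had a log2 fold change of 0.91 at timepoint 2 (authors' limma adjusted p = 0.0420). The authors' deposited tables called 0 members at timepoint 1, against 0.0% of genes, and 0 at timepoint 3, against 2.15%, with ATP5MD at 1.28 at timepoint 3 (authors' limma adjusted p = 0.0510).

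The members named most often lie on several chromosomes of hg38, per the deposited annotation. SDHA spans chr5:218320-257082 and UQCRQ chr5:132866646-132867683, both on the plus strand. NDUFB2 spans chr7:140696708-140706643 on the plus strand, COX7A2 chr6:75237675-75250323, ATP5F1E chr20:59028678-59032345 and ATP5MD chr10:103389050-103396466, these 3 on the minus strand. ATP5MF-PTCD1 and NDUFC2-KCTD14 overlap ATP5MF and NDUFC2, and reads of these pairs cannot be told apart. In all, 47 members have 164 pseudogenes named after them in the table. The counts of these summed to at most 0.993% of the member's own count, for UQCRFS1.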

How the data were processed

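RNA was measured by poly-A sequencing in 18 libraries. The submitters' processing notes name STAR (version 2.7.1a), HOMER, limma, edgeR and the hg38 build. The part each tool played, the strand and the rule for counting reads are not stated in those notes. The deposited counts are whole numbers per gene, not normalised by the authors, and 0 sample columns were unused. The authors' log2 fold changes, p-values and adjusted p-values come from limma per the file headers, and the authors' deposited log2 CPM table and the score columns of the deposited tables were not used for tests.

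From the counts, 17 libraries were fitted with edgeR 4.0.16 (R 4.3.3) after filterByExpr and TMM scaling, with the quasi-likelihood F test and Benjamini-Hochberg adjustment at 0.05. CPM values use TMM-scaled library sizes, and standard errors were taken from the log2 fold change and F. The block fitted a shift for each replicate number that all timepoints share, and it lowered the common dispersion from 0.0686 to 0.0363. Relative to 2D timepoint 1, the mean log2 CPM of the 80 subunits was 0.00, -0.48 and 0.47 in the 2D replicates of that timepoint. In those of timepoint 2 it was 0.02, 0.08 and 0.04. Whether the timepoints share a replicate shift was not tested. The labels give each replicate number a shared date. Within a timepoint, the deviations of same-numbered 2D and 3D libraries from their group means correlated at 0.324 on average (8 pairs, 0.186 to 0.513). The average for other pairs was -0.161. With 2 or 3 libraries in a group the deviations sum to 0, so the value for other pairs follows largely from the first and is no separate evidence. Alternatives were the block, DESeq2 1.42.0, RLE scaling, no filter, all 18 libraries, a length offset, the groups compared alone and leaving out each library. A joint length and GC offset, and the blocked fit without each library, were added after the data were seen.

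Tested on simulated data at timepoint 2 without the block (18146 genes), the test found 5.97% of the genes made to change by 1.5 times, 55.2% of those changed by 2 times and 98.5% of those changed by 4 times, with 5 false calls. Named members were those called (at most 6 per comparison and complex by p), the highest and lowest of each complex at timepoints 2 and 3, listed core subunits (1 of them is not reported here) and those nearest the mean count. Other members named with their values, such as NDUFS4 and COX8A, were chosen after their values were seen. The members, gene lists and the other fits were chosen with earlier results of these data known.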

Additional observations from a re-analysis of the deposited data

Results flagged for a closer look

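ATP5MD was the member whose difference between 3D and 2D changed from timepoint 1 by a test of the change itself. In the fit with the replicate block, the interaction was 1.08 on the log2 scale at timepoint 2 (SE 0.21, edgeR adjusted p = 0.0297) and 1.16 at timepoint 3 (SE 0.23, edgeR adjusted p = 0.0248). Without the block the values were 1.03 (adjusted p = 0.556) and 1.30 (adjusted p = 0.441), which did not pass. Within replicate numbers the log2 difference of 3D minus 2D was -0.06, -0.29 and 0.28 at timepoint 1, 0.91, 1.23 and 1.08 at timepoint 2, and 1.17 and 1.00 in replicates 2 and 3 at timepoint 3. With the length and GC offset and the block they were 0.94 (adjusted p = 0.0287) and 0.89 (adjusted p = 0.0591), so the call at timepoint 3 was lost. Both interactions share the timepoint 1 libraries. With the block and 1 library left out, no member passed in 9 of 12 omissions at timepoint 2 and 6 of 11 at timepoint 3.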

How the results depend on the processing

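The numbers of members called depended on the fit more than their direction did. For 3D against 2D at timepoint 2, 0 were called, against 1.49% of all genes. The counts were 48 with the replicate block (15.9% of all genes), 18 with DESeq2 (8.91%) and 38 with no filter on low counts. They were 44 with the length offset and block (13.7%), 7 with the length and GC offset (4.11%) and 49 with that offset and block (19.4%). With only the groups compared 41 were called (4.83%). At timepoint 3, 0 were called, against 1.5% of all genes. The counts were 13 with the replicate block (9.75% of all genes), 1 with DESeq2 and 6 with no filter. They were 16 with the length offset and block, and 7 with the length and GC offset and block (10.0%). Leaving out 1 library in the fit without the block gave 0 to 0 at timepoints 1 and 2 and 0 to 1 at timepoint 3, and with the block 6 to 51 at timepoint 2 and 1 to 8 at timepoint 3. In 2D from timepoint 1 to 2, 1 was called with the length and GC offset and block. In 2D from timepoint 1 to 3, 1 was called with the block, 1 with the length offset and block, 1 with the length and GC offset and 1 with that offset and block, and omissions without the block gave 0 to 0 in both. In 3D from timepoint 1 to 2, 21 were called, against 15.1% of all genes. The counts were 62 with the block (28.4% of all genes), 13 with RLE scaling and 44 with no filter. They were 57 with the length offset and block, 32 with the length and GC offset and 61 with that offset and block. With only the groups compared 0 were called (6.83%), and 1 to 65 without 1 library and without the block. In 3D from timepoint 1 to 3, 2 were called, against 11.0% of all genes. The counts were 19 with the block (23.9% of all genes), 9 with no filter and 1 with all 18 libraries. They were 20 with the length offset and block and 23 with the length and GC offset and block. With only the groups compared 0 were called (8.04%), and 0 to 37 without 1 library and without the block. For the interaction at timepoint 2 they were 1 with the block, 1 with no filter, 1 with the length offset and block and 3 with the length and GC offset and block, and at timepoint 3 they were 1, 1 and 1 under the first 3 of these. The member called with no filter at timepoint 2 was not ATP5MD, the 1 called with the block. Omissions without the block gave 0 to 0 for both interactions, and with it 0 to 28 and 0 to 4. The 48 members called with the block at timepoint 2 include the 18 of DESeq2, 36 of the 38 without a filter and 34 of the 41 of the groups alone. Where no share of all genes is given here or above, a count cannot be told from a general change in calls. RLE scaling, no filter and all 18 libraries are among such fits. The cause of these changes was not tested.

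Some log2 fold changes of members that had not passed changed sign. At timepoint 2, ATP5F1A was -0.094 with the length offset, -0.10 with the block added, -0.10 with the length and GC offset and -0.11 with that and the block. At timepoint 3, UQCRC1 was 0.029 with the length and GC offset and 0.017 with the block added, COX6A1 was -0.016 with the length offset, and NDUFS1 was -0.13 with the length and GC offset and -0.091 with the block added. ATP5F1D was 0.011 with the block, 0.097 with all 18 libraries, 0.29 with the length and GC offset and 0.31 with that and the block. CYC1 was 0.063 with all 18 libraries, 0.22 with the length and GC offset and 0.21 with that and the block, ATP5F1A was -0.021 with that last fit, and ATP5F1B was 0.017 with all 18 libraries. Without 1 library at timepoint 2, UQCRC2 from -0.18 to 0.072, ATP5F1B from -0.16 to 0.012, NDUFV1 from -0.048 to 0.050 and ATP5F1A from -0.037 to 0.14 were the ranges. At timepoint 3 they were COX6A1 from -0.044 to 0.098, ATP5F1D from -0.23 to 0.061, NDUFS1 from -0.14 to 0.30, CYC1 from -0.21 to 0.031, ATP5F1A from -0.0079 to 0.26 and ATP5F1B from -0.16 to 0.064. Of 1003 values of named genes under alternatives, 803 kept their direction and side of the threshold, 46 newly passed, 123 no longer passed and 31 changed sign. Precision is limited by 2 or 3 libraries a group, by counts that exceed the header totals and by the spread of the timepoint 1 libraries.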
